A study of Mus musculus with 6 samples.

Results

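The molecular chaperones of the cytosol and the mitochondria, with HSF1, the transcription factor of the heat shock response, were followed in clones of 4T1, a mouse mammary carcinoma cell line. The 38 genes were taken as a list of symbols, and all 38 were found among the 19179 genes listed. The endoplasmic reticulum chaperones were not among them. The measurements came from 6 mRNA libraries, with 3 of clones whose tissue is given as breast cancer stem cell (the stem-labelled clones) and 3 of clones whose tissue is given as breast cancer cell (the other clones). All came from the 4T1 line of the BALB/C strain, cultured for 14 days after seeding at 1 cell per well, and no drug, gene transfer or heat treatment is named for either group. For each kind, 10 clones were taken at random in each of 3 independent experiments or over them, which the labels leave unclear, as they do whether clones were pooled in a library. The stem label rests on the submitters' separation of clones, and both groups are descendants of a single line grown in plastic wells. The p-values below measure only the spread between these libraries, and a lower level can come from fewer cells expressing a gene or from less RNA per cell, which cannot be told apart in bulk RNA.

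Chaperones bind unfolded or partly folded proteins and let them fold, assemble, cross a membrane or be degraded. HSP70 proteins work with J proteins, which deliver substrates and stimulate ATP hydrolysis, and with exchange factors such as the BAG proteins, which release the nucleotide. HSP90 completes the folding of kinases and steroid receptors together with co-chaperones, and the ring-shaped chaperonin TRiC/CCT folds actin and tubulin that prefoldin delivers to it. In unstressed cells HSF1 is held inactive by chaperones, and under proteotoxic stress it binds heat shock elements, inverted repeats of the bases GAA, in the promoters of many of these genes.

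The upstream sequences were examined first, since heat shock elements are the feature by which part of this group is known. Windows from 250 bases before to 50 bases after a transcription start were available from RefSeq (build GRCm38.p6) for 31 of the 38 genes, as 41 windows. The element with 2 units, written GAANNTTC or TTCNNGAA and searched on both strands, was present in 18 of the 41 windows (43.9%), which belonged to 16 genes. It was present in 15.1% of all 32851 windows of the same length. Counted by gene, it was present for 16 of 31, against 17.0% of all 27025 genes with a window. The element with 3 units, GAANNTTC followed by NNGAA or TTCNNGAA followed by NNTTC, contains the shorter one. It was present in 6 of the 41 windows (14.6%), against 0.603% of all windows. These belonged to 4 of the 31 genes, Dnajb6, Hspd1, Hspe1 and Hsph1, against 0.662% of all genes. The windows are not independent, since those of Dnajb6 overlap, as do those of Hsph1, and Hspd1 and Hspe1 share the same bases. The letters CCAAT or ATTGG, a common promoter motif that served as a comparison, were present in 36.6% of the chaperone windows and in 37.4% of all windows. These matches describe letters in a window and do not show that a factor was bound there.

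The upstream bases of the stress-inducible HSP70 pair and of the mitochondrial chaperonin pair are printed here because the members of each pair share an element. They are given 5′ to 3′ on the strand of the gene, and the capitals mark heat shock elements. The bases before Hspa1a are chr17:34972157-34972406 and those before Hspa1b are chr17:34959239-34959488, both on the minus strand. The sequences of this pair differed at 3 of 250 bases (98.8% identical), and in both the element began at position -104 from the start of transcription. The bases before Hspe1, at chr1:55087898-55088147 on the plus strand, hold an 18-base element at chr1:55088059-55088076 that also lies, on the opposite strand, in 1 of the 2 windows of Hspd1, the one with the start further downstream. The window at the start of Hspd1 as listed in the files holds no element, and from that start the element lies within the gene.
Hspa1a: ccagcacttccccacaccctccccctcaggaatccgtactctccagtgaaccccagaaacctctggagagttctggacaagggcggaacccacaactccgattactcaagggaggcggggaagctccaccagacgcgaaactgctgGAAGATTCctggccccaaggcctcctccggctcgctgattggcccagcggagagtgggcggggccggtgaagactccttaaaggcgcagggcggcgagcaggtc
Hspa1b: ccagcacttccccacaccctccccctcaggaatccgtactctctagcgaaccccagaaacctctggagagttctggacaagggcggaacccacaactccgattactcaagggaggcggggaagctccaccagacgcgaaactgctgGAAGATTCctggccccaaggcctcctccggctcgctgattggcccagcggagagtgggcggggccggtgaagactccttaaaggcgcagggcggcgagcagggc
Hspe1: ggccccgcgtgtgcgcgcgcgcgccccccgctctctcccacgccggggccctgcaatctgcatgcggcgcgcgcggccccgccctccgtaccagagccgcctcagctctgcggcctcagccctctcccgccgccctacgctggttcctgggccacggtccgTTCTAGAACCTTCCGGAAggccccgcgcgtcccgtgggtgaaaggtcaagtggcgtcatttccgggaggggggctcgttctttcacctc

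Levels are given in RPKM, the read count of a gene divided by its length and by the library total, as the authors deposited them. A comparison between genes rests on the length listed for each gene, and differences between the groups depended on length, as given below. Recovered reads in genes were 15357608 to 16830762 for the other clones and 21196572 to 22838870 for the stem-labelled clones. As a multiple of the total implied by the deposited unit they were 0.658 to 0.757 for the stem-labelled and 1.23 to 1.53 for the other clones, so the deposited scale differs between the groups. Dividing by the summed reads instead (the rescaled values below) moved the median log2 difference of all tested genes from 0.11 to 0.86. Mitochondrially encoded transcripts took 0.964% to 1.23% of reads from stem-labelled clones and 2.42% to 7.78% of reads from other clones, and ribosomal protein genes took 7.05% to 10.0% and 18.1% to 25.9%. All 5 epithelial markers were above 1 RPKM in at least 1 library, with sums of 913 to 1400 RPKM in the stem-labelled and 1872 to 3464 RPKM in the other libraries. The markers differed in direction. Krt18 was lower in the stem-labelled clones (419.97 ± 106 against 1480.5 ± 478 RPKM), Cdh1 higher (68.9 ± 9.002 against 16.0 ± 1.98 RPKM), and Epcam overlapped (55.2 ± 4.78 against 56.2 ± 2.51 RPKM; SD, n = 3 each). Of the 6 leukocyte markers 4 were listed, with sums of 12.3 to 39.9 RPKM in the stem-labelled and 6.09 to 29.3 RPKM in the other libraries. These sums were nearly all Cd68, and the highest value of another leukocyte marker was 0.0191 RPKM. Of the 5 fibroblast markers 3 were listed, with sums of 1.67 to 3.38 RPKM against 0.396 to 1.01 RPKM, and no endothelial marker exceeded 0.0635 RPKM. The part of these differences between libraries in the results below was not tested.

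The chaperones did not move as a single block between the kinds of clone. Hspa1b, the inducible cytosolic HSP70, and the HSP70 exchange factors Bag1 and Bag3 were higher in the stem-labelled clones, while the inducible HSP90 gene Hsp90aa1 and all 3 prefoldin subunits were lower there. Of the 38 genes, 35 reached 1 RPKM in 3 or more libraries and were tested, within a fit of 10097 genes. At a Benjamini-Hochberg adjusted p under 0.05 from limma, 4 were higher in the stem-labelled clones, 10 were lower and 21 were not called. Over all genes tested, 55.2% were called, 29.9% higher and 25.4% lower, so the 11.4% of chaperones called higher were fewer than in the background and the 28.6% called lower were close to it. The median log2 difference (stem-labelled minus other, on the log2(RPKM + 1) scale) was -0.14 for the chaperones and 0.11 for all genes tested. The number called lower was 5 without stem-labelled replicate 1 and also 5 without stem-labelled replicate 2.

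**Figure D1:**
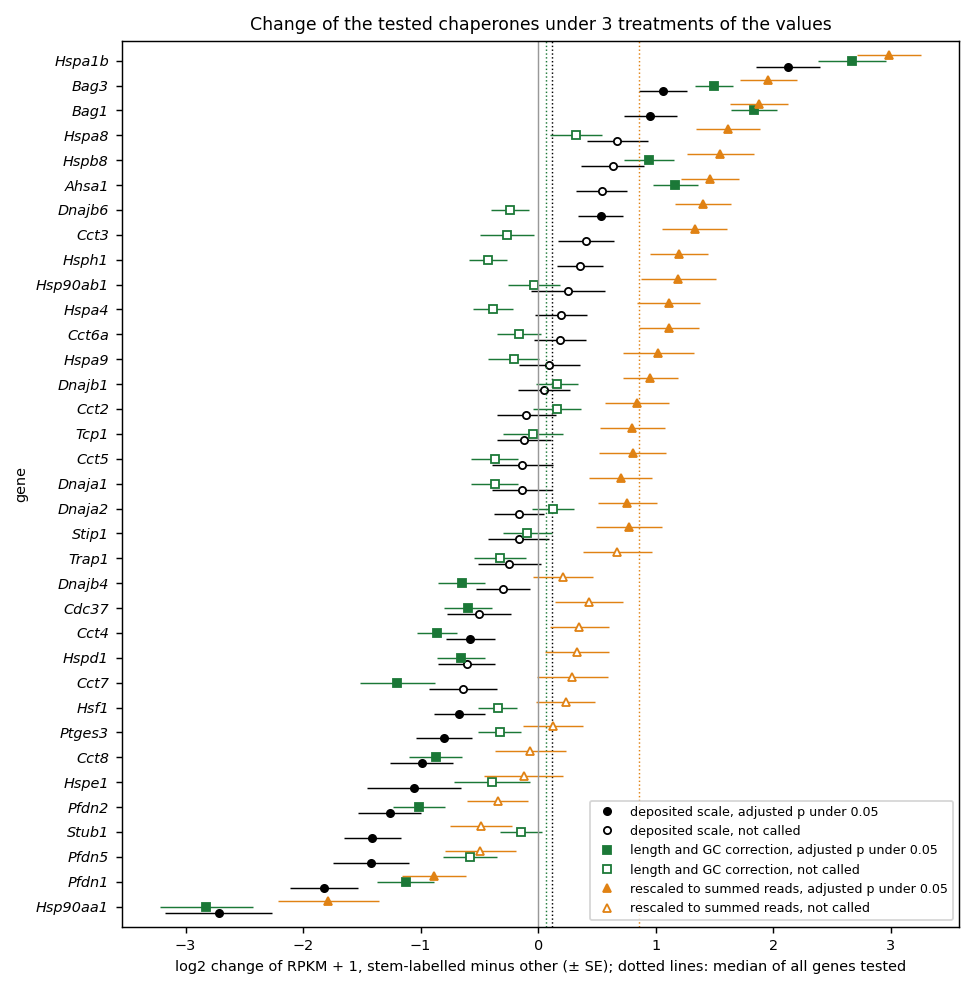
Log2 difference (stem-labelled minus other, log2(RPKM + 1) scale, x axis) of the 35 tested chaperones, ordered by that difference, on the deposited scale (black circles), after the length and GC correction (green squares) and rescaled to summed reads (orange triangles), with bars of 1 standard error from limma (3 libraries a group), filled symbols for called genes and dotted lines at the median of all genes. On the deposited scale Hsp90aa1 lies at -2.72 and Hspa1b at 2.13, and both are filled in all 3 treatments.

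The groups of libraries did not overlap for 8 chaperones with higher and 11 with lower values in the stem-labelled clones, against 35.7% and 27.8% of all tested genes, and they overlapped for the other 16. Differences depended on transcript length across the whole transcriptome. When the tested genes were divided by length into 4 groups of like size, then among genes of 57 to 2113 bases 51.4% were called lower and 7.77% higher, and among genes of 5703 to 38847 bases 7.29% were lower and 53.0% higher. The shortest genes included 10 chaperones, of which 6 were called lower and 1 higher. After correction for length and GC content, 5 chaperones were called higher and 9 lower, against 25.8% and 22.0% of all tested genes (47.8% in either direction). On the rescaled values 20 were higher and 2 lower, against 58.7% and 12.3% of all tested genes (71.0% in either direction). Hsp90aa1, Hspa1b, Bag1, Bag3 and Pfdn1 were called in the same direction under all 17 alternatives that were run.

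**Figure D2:**
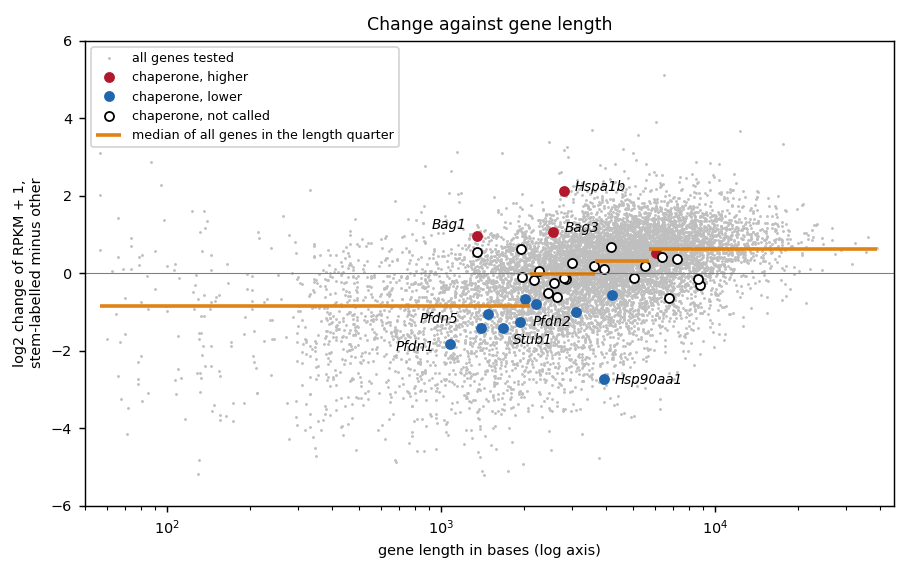
Log2 difference (stem-labelled minus other, y axis) against gene length in bases (log axis, x axis) for all tested genes and the 35 tested chaperones. The chaperones called lower, among them Pfdn1, Pfdn2, Pfdn5 and Stub1, lie mostly among short genes, while Hsp90aa1, at 3931 bases, lies below the line of medians at its length.

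Hsf1 (ENSMUSG00000022556, chr15:76477445-76500972), the activator of the heat shock response, was at 21.9, 21.7 and 18.4 RPKM in the stem-labelled clones (replicates 1 to 3, the order used throughout) and at 28.1, 39.3 and 33.9 RPKM in the other clones. All 3 stem-labelled libraries were below all 3 others. It fell by 0.67 ± 0.22 (SE) on the log2 scale (limma adjusted p = 0.0244). The call was lost without any single library except other replicate 1 (adjusted p 0.0575 to 0.0789), after the length and GC correction (adjusted p = 0.12), and on rescaled values, where the sign turned to 0.23 (adjusted p = 0.414).

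Of the 2 cytosolic HSP90 genes, whose products are closely related dimeric chaperones, Hsp90aa1 was called lower in the stem-labelled clones and Hsp90ab1 was not called. Hsp90aa1 (ENSMUSG00000021270, chr12:110690605-110702728), the stress-inducible form, was at 23.8, 45.9 and 84.5 RPKM in the stem-labelled clones and at 267, 219.5 and 481 RPKM in the other clones. Every stem-labelled library was below every other library, and the values spread widely within both groups. The means were 51.4 ± 30.7 (SD, n = 3) and 322 ± 139 RPKM (SD, n = 3), 6.27-fold lower in the stem-labelled clones, with a log2 difference of -2.72 ± 0.46 (SE, limma adjusted p = 0.00107). Its difference ranged from -3.16 to -1.79 and its adjusted p from 0.000361 to 0.0125 over the alternatives. Of its 50-base stretches, 58.5% also occur in other transcripts, chiefly pseudogenes, and how the authors assigned such reads is not given in the sources used here.

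Hsp90ab1 (ENSMUSG00000023944, chr17:45567775-45573271), the constitutive form, had the highest mean level of the 38 genes. It was at 1171, 1099 and 974 RPKM in the stem-labelled clones and at 765, 1073 and 905 RPKM in the other clones. The groups overlapped, since other replicate 2 lay above stem-labelled replicate 3, and the log2 difference of 0.25 ± 0.31 (SE) was not called (limma adjusted p = 0.518). On rescaled values the difference was 1.19 and called higher (adjusted p = 0.00488), and after the length and GC correction it was -0.034.

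A ratio within a library does not depend on that library's total, but it can carry a difference that depends on gene length. Hsp90aa1 made up 1.99%, 4.01% and 7.98% of the summed RPKM of both HSP90 genes in the stem-labelled clones and 25.9%, 17.0% and 34.7% in the other clones. The shares did not overlap between the groups, with means of 4.66% ± 3.05 and 25.8% ± 8.85 (SD, n = 3 each). The exact two-sided permutation test gave p = 0.1, the smallest value that 3 libraries against 3 allow, and 0.133 after adjustment over 4 ratios. The ratio of the highest to the lowest TRiC/CCT subunit and the summed RPKM, given below, were outside this adjustment. The ratios were chosen after the values of single genes had been seen.

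**Figure D3:**
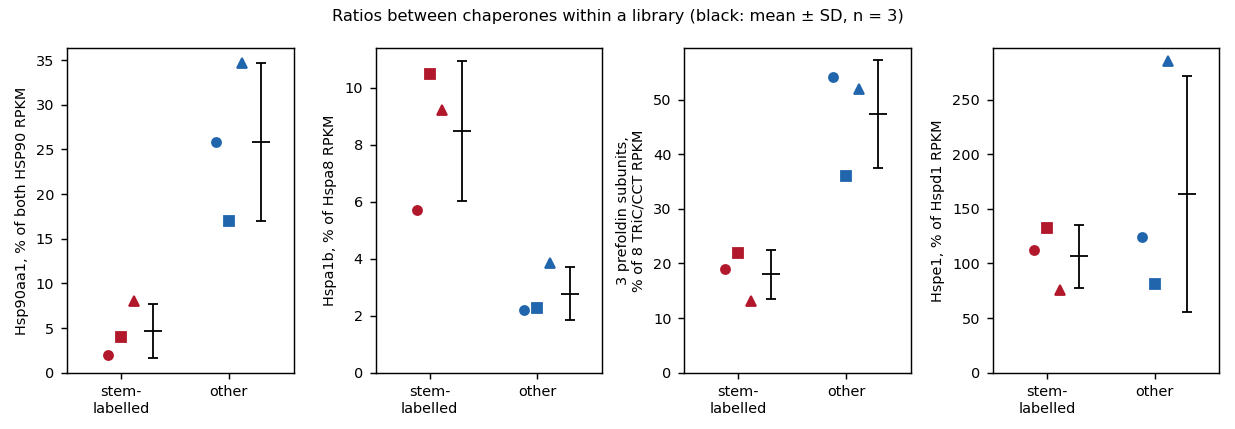
Ratios within each library of the RPKM of related chaperones (y axes, percent), with the 3 libraries of each group as points (circle, square and triangle for replicates 1 to 3) and the group mean ± SD in black beside them. The Hsp90aa1 share of both HSP90 genes is 1.99% to 7.98% in stem-labelled clones and 17.0% to 34.7% in other clones, and Hspa1b relative to Hspa8 is separated in the opposite direction.

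Of the 4 HSP90 co-chaperones, 1 (25%) was called, and it was lower, against 25.4% of all tested genes called lower. Ptges3 (p23), which stabilises the closed, ATP-bound form of HSP90, was at 36.9, 37.5 and 42.3 RPKM in the stem-labelled and 84.8, 53.4 and 70.6 RPKM in the other clones. The groups did not overlap, and Ptges3 fell by 0.80 ± 0.24 (SE) on the log2 scale (limma adjusted p = 0.0185). The call was lost without other replicate 1 (adjusted p = 0.0511), stem-labelled replicate 1 (0.0692) or stem-labelled replicate 2 (0.0724). It was also lost after the length and GC correction (0.166), and on rescaled values, where the difference was 0.13. Other transcripts share 22.2% of the 50-base stretches of Ptges3.

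Ahsa1, the activator of the HSP90 ATPase, had higher values in the stem-labelled clones without passing the threshold. It was at 55.6, 49.4 and 43.0 RPKM in the stem-labelled and 30.0, 36.8 and 33.9 RPKM in the other clones, with no overlap and a log2 difference of 0.54 ± 0.22 (SE, limma adjusted p = 0.0573). After the length and GC correction the difference was 1.17 (adjusted p = 0.00133). Cdc37, which recruits kinases to HSP90, was at 182, 173 and 132 RPKM against 193, 279 and 223 RPKM, also without overlap and not called (log2 difference -0.51, adjusted p = 0.138). It was called lower after the length and GC correction (-0.60, adjusted p = 0.0365), and on rescaled values its sign turned to 0.43. Stip1 (HOP), which bridges HSP70 and HSP90, overlapped between the groups, with 127 to 175 RPKM against 135 to 187 RPKM and a log2 difference of -0.17 (adjusted p = 0.607). On rescaled values Stip1 was called higher (0.77, adjusted p = 0.0258).

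Of the 6 cytosolic HSP70 and HSP110 genes 4 were tested, and 1, the inducible Hspa1b, was called, higher in the stem-labelled clones. This was 25% of those tested, against 29.9% of all tested genes called higher. Hspa1b (ENSMUSG00000090877, chr17:34956436-34959238, minus strand) was at 24.5, 43.7 and 30.9 RPKM in the stem-labelled clones, from 8459 reads in all, and at 5.45, 5.73 and 9.07 RPKM in the other clones, from 638 reads. The lowest stem-labelled library was above the highest other library. The means of 33.0 ± 9.74 and 6.75 ± 2.01 RPKM (SD, n = 3 each) stood in a ratio of 4.89, and the gene rose by 2.13 ± 0.27 (SE) on the log2 scale (limma adjusted p = 0.000315). The difference ranged from 1.91 to 2.99 over the alternatives, with adjusted p up to 0.00431.

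Hspa1a, which encodes a nearly identical protein from the neighbouring locus, was close to absent, with 2, 0 and 2 reads in the stem-labelled and 0, 2 and 0 reads in the other libraries. It was not tested, and 3 reads, the limit that a count of 0 allows, correspond to 0.0314 to 0.1004 RPKM in these libraries. Of the 50-base stretches of Hspa1b, 62.3% also occur in Hspa1a or Hspa1l, so the division of reads between Hspa1a and Hspa1b is uncertain, and the Hspa1b values may hold reads of both. Hspa2, the testis-enriched form, was at 0.488, 0.641 and 0.530 RPKM against 0.533, 0.670 and 0.276 RPKM and was not tested.

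Hspa8 (HSC70, ENSMUSG00000015656, chr9:40800984-40805200), the constitutive HSP70 and the gene with the second highest mean level, was at 429, 417 and 335 RPKM in the stem-labelled and 248, 252 and 236 RPKM in the other clones. The groups did not overlap, but the log2 difference of 0.67 ± 0.26 (SE) missed the threshold (limma adjusted p = 0.0516). It was called higher under 4 of the 17 alternatives, among them without stem-labelled replicate 3 (0.78, adjusted p = 0.0384) and on rescaled values (1.61, adjusted p = 0.000231). After the length and GC correction the difference was 0.32 and not called (adjusted p = 0.254). Pseudogenes share 51.4% of its 50-base stretches, and the small nucleolar RNAs Snord14c, Snord14d and Snord14e overlap it on the same strand.

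Relative to Hspa8, Hspa1b was at 5.72%, 10.5% and 9.23% in the stem-labelled clones and at 2.20%, 2.28% and 3.85% in the other clones. These percentages did not overlap, with means of 8.47% ± 2.46 and 2.77% ± 0.930 (SD, n = 3 each; exact two-sided permutation p = 0.1, adjusted 0.133). The HSP110 genes Hsph1 and Hspa4, which act as exchange factors of HSP70, were not called. Hsph1 was at 9.92, 8.66 and 11.4 RPKM against 7.14, 8.21 and 7.34 RPKM, with no overlap (log2 difference 0.36, limma adjusted p = 0.145), and its sign turned to -0.43 after the length and GC correction. Hspa4 overlapped between the groups, with 27.6 to 39.9 RPKM against 25.6 to 30.5 RPKM (log2 difference 0.20, limma adjusted p = 0.471), and its sign also turned, to -0.38.

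**Figure D4:**
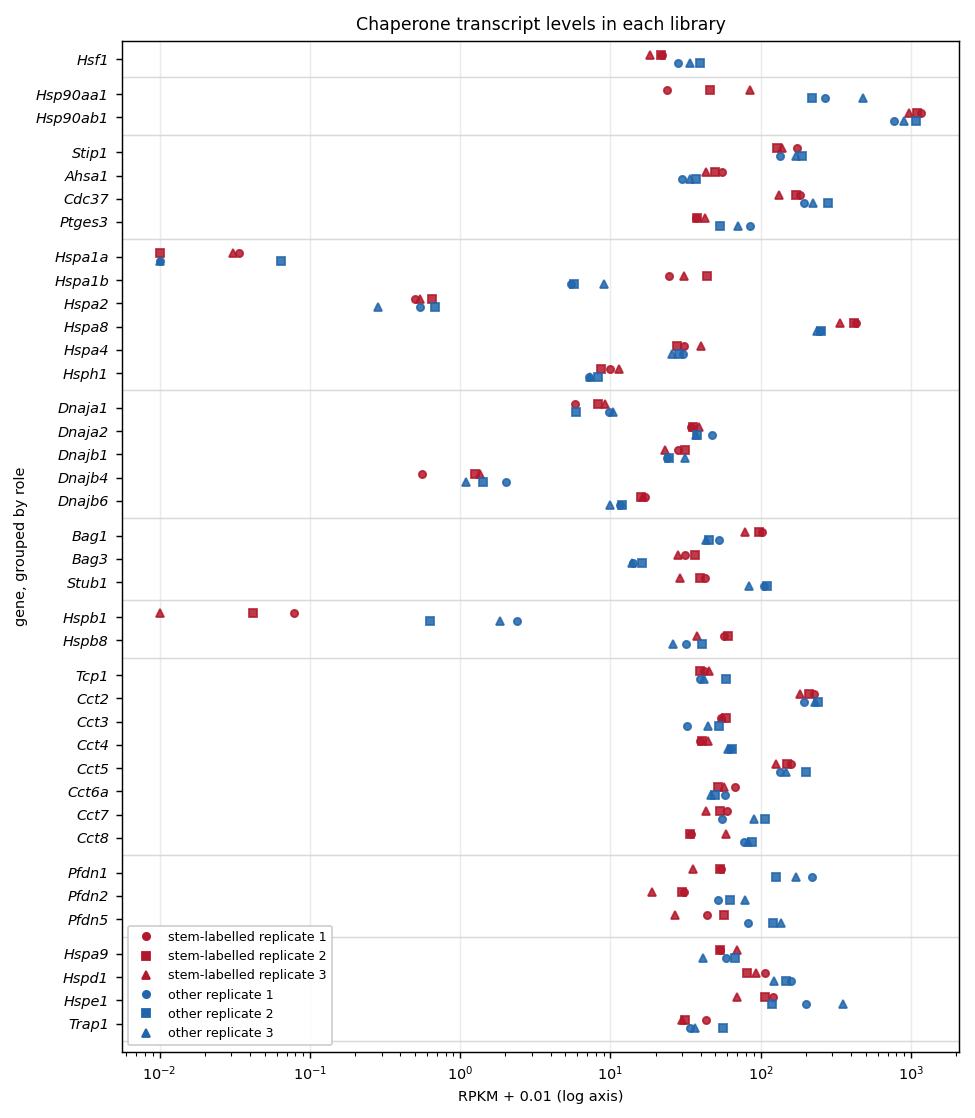
RPKM + 0.01 (x axis, log scale, so that 0 can be drawn) of each of the 38 chaperones in every library, grouped by role, with stem-labelled clones in red, other clones in blue and replicates 1 to 3 as circles, squares and triangles. Hsp90ab1 lies highest, between 765 and 1171 RPKM, and Hspa1a lowest, with Hspb1 and Hspa2 also under 1 RPKM in most libraries.

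Of the 5 J proteins, which stimulate the HSP70 ATPase, 1 (20%) was called higher, against 29.9% of all tested genes, and none was called lower. Dnajb6, known for suppressing aggregation of polyglutamine proteins, was at 17.1, 15.9 and 16.3 RPKM in the stem-labelled and 11.5, 11.9 and 9.85 RPKM in the other clones. The groups did not overlap, and the gene rose by 0.53 ± 0.19 (SE) on the log2 scale (limma adjusted p = 0.0383). The call was lost without any single library except other replicate 2 (adjusted p 0.0535 to 0.132). The sign turned to -0.24 after the length and GC correction (adjusted p = 0.255). Of the 50-base stretches of Dnajb6, 35.8% also occur in other transcripts, and an exon of Gm5129 overlaps it on the opposite strand. Dnajb1, a classical heat shock target, was at 28.0, 31.2 and 23.0 RPKM against 23.7, 24.6 and 31.3 RPKM, with a log2 difference of 0.047 ± 0.22 (SE, adjusted p = 0.871). Dnaja1, Dnaja2 and Dnajb4 also overlapped between the groups and were not called, with log2 differences of -0.14, -0.16 and -0.30. On rescaled values 4 of the 5 were called higher, against 58.7% of all tested genes. These were Dnajb6 (1.40), Dnajb1 (0.95), Dnaja1 (0.70) and Dnaja2 (0.76), with adjusted p up to 0.0319. After the length and GC correction Dnajb4 was called lower (-0.65, adjusted p = 0.0253), while on rescaled values its difference was 0.21.

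The 2 BAG exchange factors were higher in the stem-labelled clones and the CHIP ubiquitin ligase, which also binds HSP70, was lower. Bag1 (ENSMUSG00000028416, chr4:40936398-40948294), which couples HSP70 to the proteasome, was at 102, 97.4 and 78.7 RPKM in the stem-labelled and 53.1, 45.6 and 43.0 RPKM in the other clones. All stem-labelled libraries lay above the others, with means of 92.6 ± 12.2 and 47.2 ± 5.23 RPKM (SD, n = 3 each), and the gene rose by 0.95 ± 0.23 (SE) on the log2 scale (limma adjusted p = 0.00615). After the length and GC correction the difference was 1.83.

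Bag3 (ENSMUSG00000030847, chr7:128523616-128546981), which directs HSP70 clients to autophagy and is itself a heat shock target, was at 31.6, 36.5 and 28.1 RPKM against 14.0, 16.3 and 14.0 RPKM. Its groups did not overlap, with means of 32.1 ± 4.23 and 14.8 ± 1.31 RPKM (SD, n = 3 each), and it rose by 1.06 ± 0.20 (SE) on the log2 scale (limma adjusted p = 0.00209). In a list of the 6 BAG family genes, which adds Bag2, Bag4, Bag5 and Bag6, 4 were called higher and none lower, against 29.9% and 25.4% of all tested genes. Bag5 had the largest difference of these at 1.51 ± 0.19 (SE, adjusted p = 0.000312), from 4.44 ± 0.632 to 14.5 ± 1.38 RPKM (SD, n = 3 each). Bag6 had a difference of -0.49 and Bag4 one of 0.24, and neither was called.

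Stub1 (CHIP, ENSMUSG00000039615, chr17:25830636-25833361) was at 42.3, 39.3 and 29.2 RPKM in the stem-labelled and 104, 111 and 83.4 RPKM in the other clones. The highest stem-labelled value was under the lowest other value, with means of 36.9 ± 6.86 and 99.5 ± 14.3 RPKM (SD, n = 3 each), and the gene fell by 1.41 ± 0.24 (SE) on the log2 scale (limma adjusted p = 0.00119). The difference was -0.15 after the length and GC correction (adjusted p = 0.53) and -0.49 on rescaled values (adjusted p = 0.117), neither called. An exon of Jmjd8 overlaps Stub1 on the opposite strand, and since the strand of counting is not stated the reads of these genes cannot be told apart. Hspbp1, an exchange factor outside the 38 genes, fell by 2.33 ± 0.28 (SE, adjusted p = 0.00025), from 182 ± 22.2 RPKM in the other to 36.5 ± 12.03 RPKM in the stem-labelled clones (SD, n = 3 each).

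The 2 small heat shock proteins, which hold unfolded proteins without ATP, were at very different levels. Hspb8, the partner of BAG3, was at 56.7, 60.1 and 37.6 RPKM against 31.8, 40.4 and 25.9 RPKM. Stem-labelled replicate 3 lay within the range of the other clones, and the log2 difference of 0.63 ± 0.27 (SE) was not called (limma adjusted p = 0.0687). It was called higher without stem-labelled replicate 3 (0.84, adjusted p = 0.0346) or other replicate 2 (0.79, adjusted p = 0.0406), and after the length and GC correction (0.94, adjusted p = 0.00601).

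Hspb1 (HSP25, ENSMUSG00000004951, chr5:135887919-135889563) was nearly without reads in the stem-labelled clones, with 2, 1 and 0 reads, and had 29, 8 and 19 reads in the other clones. In RPKM these were 0.0681, 0.0320 and 0 against 2.36, 0.624 and 1.83, without overlap. It was below the filter on low values, and in the fit without that filter it was called lower (log2 difference -1.27 ± 0.27, SE, limma adjusted p = 0.0184). The processed pseudogene Hsp25-ps1 shares 51.6% of its 50-base stretches.

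The TRiC/CCT chaperonin, a double ring of 8 different subunits, had differences in both directions on the deposited scale, 6 negative and 2 positive. Of its 8 genes, 2 (25%) were called lower, Cct4 and Cct8, near the 25.4% of all tested genes. None was called higher, against 29.9% of all tested genes, and 6 were not called. The median log2 difference of the 8 was -0.13. After the length and GC correction 3 were called lower and none higher (median -0.32), against 22.0% and 25.8% of all tested genes. On rescaled values 5 were called higher and none lower (median 0.80), against 58.7% and 12.3%. The summed RPKM of the 8 genes was 683, 639 and 612 in the stem-labelled and 653, 860 and 745 in the other clones, which overlapped (exact two-sided permutation p = 0.2). By RPKM, Cct2 was the highest subunit and Cct5 the next in each of the 6 libraries. The highest RPKM exceeded the lowest by 5.70 ± 1.27 times in the stem-labelled and 5.47 ± 0.575 times in the other libraries (SD, n = 3 each). This order rests on the listed lengths, which run from 1962 bases for Cct2 to 6778 bases for Cct7. Reads, which are not divided by length, had another order in replicates 2 and 3 of both groups. Other replicate 2 had 8940 for Cct7, 6968 for Cct5 and 5897 for Cct2. Other replicate 3 had 6192 for Cct7, 4536 for Cct2 and 4197 for Cct5. In stem-labelled replicate 2 Cct5 (12756) was above Cct2 (12561), and in stem-labelled replicate 3 Cct3 (11407) was above Cct5 (11357).

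Cct8 (chr16:87483326-87495873) was at 34.3, 33.9 and 59.1 RPKM in the stem-labelled and 77.5, 87.9 and 82.7 RPKM in the other clones. The groups did not overlap, but stem-labelled replicate 3 stood well above the other stem-labelled libraries. Cct8 fell by 0.99 ± 0.27 (SE) on the log2 scale (limma adjusted p = 0.0111). The call was lost without stem-labelled replicate 1 (adjusted p = 0.0535) or 2 (0.0597), and on rescaled values the difference was -0.066. An exon of Usp16 overlaps Cct8 on the opposite strand.

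Cct4 (chr11:22990519-23003780) was at 39.4, 40.6 and 44.9 RPKM against 62.6, 64.7 and 60.3 RPKM, with no overlap. It fell by 0.58 ± 0.21 (SE) on the log2 scale (limma adjusted p = 0.0377). Leaving out any of the 6 libraries ended this call (adjusted p 0.0546 to 0.136), and on rescaled values the sign turned to 0.35 (adjusted p = 0.224). Cct7, at 59.3, 53.9 and 42.9 RPKM against 55.0, 106 and 90.7 RPKM, was not called (log2 difference -0.64, adjusted p = 0.0875). Its other replicate 1 lay among the stem-labelled values, and without that library it was called lower (-0.91, adjusted p = 0.0181). Cct7 was also called lower after the length and GC correction (-1.20, adjusted p = 0.0131), and on rescaled values its sign turned to 0.29.

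Cct3 was the only subunit whose stem-labelled libraries were all higher, at 54.6, 58.9 and 55.6 RPKM against 32.2, 52.4 and 44.6 RPKM, and it was not called (log2 difference 0.41, limma adjusted p = 0.176). Its sign turned to -0.26 after the length and GC correction. Tcp1, Cct2, Cct5 and Cct6a overlapped between the groups, with log2 differences of -0.12, -0.10, -0.13 and 0.19, none called. On rescaled values they and Cct3 were called higher, with differences of 0.80, 0.84, 0.80, 1.11 and 1.33 (limma adjusted p 0.000888 to 0.0232). In a list of 14 cytoskeletal clients and tubulin cofactors, 8 were called lower and none higher, against 25.4% and 29.9% of all tested genes. After the length and GC correction 7 were lower and none higher, against 22.0% and 25.8% of all tested genes. On rescaled values 2 were lower and 1 higher, against 12.3% and 58.7%. Among them the tubulin cofactor Tbca was at 887 ± 425 RPKM in the other and 127 ± 14.9 RPKM in the stem-labelled clones (SD, n = 3 each; log2 difference -2.68 ± 0.38, SE, adjusted p = 0.000488).

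Prefoldin, the hexamer that hands nascent actin and tubulin to TRiC/CCT, was lower in the stem-labelled clones for all 3 subunits among the 38 genes. Pfdn1 (chr18:36403679-36454495) was at 54.3, 53.5 and 35.2 RPKM in the stem-labelled and 219, 126 and 171 RPKM in the other clones. Every stem-labelled library was under every other library, with means of 47.7 ± 10.8 and 172 ± 46.6 RPKM (SD, n = 3 each), and Pfdn1 fell by 1.82 ± 0.29 (SE) on the log2 scale (limma adjusted p = 0.000831). The difference was -1.13 after the length and GC correction and -0.89 on rescaled values, called in both.

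Pfdn2 (chr1:171345670-171359254) was at 30.9, 29.9 and 18.9 RPKM against 52.3, 62.8 and 78.9 RPKM, without overlap, and fell by 1.26 ± 0.27 (SE, limma adjusted p = 0.0034). On rescaled values the difference was -0.34 (adjusted p = 0.248), which ended the call. An exon of Klhdc9 overlaps Pfdn2 on the opposite strand. Pfdn5 (chr15:102326116-102331873), also known as a binding partner of MYC, was at 44.1, 57.2 and 26.7 RPKM against 82.2, 121 and 136 RPKM. Its groups did not overlap either, and it fell by 1.42 ± 0.32 (SE, limma adjusted p = 0.00501). The difference of Pfdn5 was -0.58 after the length and GC correction (adjusted p = 0.0643) and -0.49 on rescaled values (adjusted p = 0.162), and Myg1 overlaps its exons on the same strand.

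The remaining prefoldin subunits, Vbp1, Pfdn4 and Pfdn6, are not among the 38 genes, but were also lower. Thus 6 of 6 were called lower, against 25.4% of all tested genes, with a median log2 difference of -1.62. Pfdn1, Pfdn2, Pfdn5 and Pfdn6 (1193 bases) lie among the genes of 57 to 2113 bases, of which 51.4% were called lower. Pfdn4 was at 8.15 ± 1.57 RPKM in the stem-labelled and 262 ± 160.4 RPKM in the other clones (SD, n = 3 each), with a log2 difference of -4.57 ± 0.52 (SE, limma adjusted p = 0.000191). Vbp1 was at 12.3 ± 0.848 against 58.8 ± 22.5 RPKM and Pfdn6 at 45.9 ± 11.2 against 102.9 ± 25.2 RPKM. After the length and GC correction 3 of the 6, Pfdn1, Pfdn2 and Pfdn4, were called lower, against 22.0% of all tested genes. The difference of Pfdn6 was then 0.032. On rescaled values 3 were again called lower, Pfdn1, Vbp1 and Pfdn4, against 12.3% of all tested genes.

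Within libraries, the summed RPKM of Pfdn1, Pfdn2 and Pfdn5 was 18.9%, 22.0% and 13.2% of the summed TRiC/CCT RPKM in the stem-labelled clones. In the other clones it was 54.2%, 36.0% and 51.8%. The shares did not overlap, with means of 18.0% ± 4.46 and 47.3% ± 9.89 (SD, n = 3 each; exact two-sided permutation p = 0.1, adjusted 0.133). The median length was 1394 bases for these prefoldin genes and 3910.5 bases for the TRiC/CCT genes. The median log2 difference of all tested genes was -0.84 at 57 to 2113 bases and 0.30 at 3634 to 5702 bases. This ratio was not corrected for length, and the part of length in it was not tested.

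**Figure D5:**
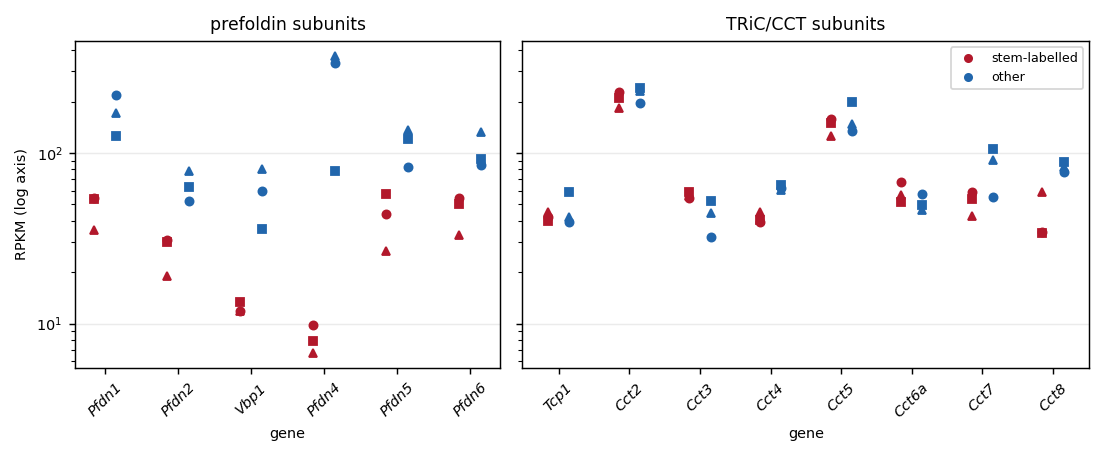
RPKM (log axis) of the 8 TRiC/CCT subunits and the 6 prefoldin subunits in each library, with stem-labelled clones in red, other clones in blue and replicates 1 to 3 as circles, squares and triangles. The prefoldin subunits are separated between the groups, with Pfdn4 farthest apart at a mean of 8.15 against 262 RPKM, while 5 of the TRiC/CCT subunits overlap.

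Of the 4 mitochondrial chaperones, 1 (25%) was called, Hspe1, and it was lower, against 25.4% of all tested genes called lower. Hspe1 (HSP10, chr1:55088132-55091307), the lid of the mitochondrial chaperonin, was at 121, 107 and 69.9 RPKM in the stem-labelled and 199, 119 and 352 RPKM in the other clones. Other replicate 2 lay within the stem-labelled range, and other replicate 3 was far above the rest. Hspe1 fell by 1.06 ± 0.40 (SE) on the log2 scale (limma adjusted p = 0.0468), and the call was lost without any single library except other replicate 2 (adjusted p 0.058 to 0.155). Without other replicate 3 the difference was -0.66, and after the length and GC correction it was -0.39 (adjusted p = 0.337).

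Hspd1 (HSP60, chr1:55077835-55088243), the chaperonin ring, is transcribed from the same promoter region in the opposite direction. It was at 107, 81.4 and 92.8 RPKM in the stem-labelled and 159.7, 147 and 123 RPKM in the other clones, with no overlap, and missed the threshold (log2 difference -0.61 ± 0.24, SE, limma adjusted p = 0.0571). It was called lower after the length and GC correction (-0.66, adjusted p = 0.0244), and on rescaled values its sign turned to 0.33. Hspe1 was at 112%, 132% and 75.3% of Hspd1 in the stem-labelled and 124%, 80.9% and 286% in the other clones, which overlapped (exact two-sided permutation p = 0.6). The first exons of this pair overlap on opposite strands, so reads there cannot be assigned without strand.

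Hspa9 (mortalin), the mitochondrial HSP70 that pulls proteins through the import channel, was at 53.8, 53.9 and 69.8 RPKM against 58.8, 67.7 and 41.4 RPKM, with a log2 difference of 0.096 ± 0.26 (SE, limma adjusted p = 0.768). Trap1, the mitochondrial HSP90, was at 43.4, 31.3 and 30.1 RPKM against 33.8, 56.3 and 36.3 RPKM, with a log2 difference of -0.25 ± 0.27 (SE, adjusted p = 0.457). Both overlapped between the groups. On rescaled values Hspa9 was called higher (1.02, adjusted p = 0.0089) and Trap1 was not called (0.67, adjusted p = 0.0563). In a list of 16 other mitochondrial chaperones and proteases, 2 (12.5%) were called higher and 6 (37.5%) lower, against 29.9% and 25.4% of all tested genes. In either direction 50% were called, against 55.2%. On rescaled values 7 were higher and none lower, against 58.7% and 12.3% of all tested genes. Grpel1, the exchange factor of mortalin, fell by 1.11 ± 0.22 (SE, adjusted p = 0.00249), a call that was lost on rescaled values (-0.21, adjusted p = 0.453).

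Genes of the same pathways outside the 38 were counted from lists of 73 genes, of which 63 were tested. Of these, 13 (20.6%) were called higher and 20 (31.7%) lower, against 29.9% and 25.4% of all tested genes. In either direction 52.4% were called, against 55.2%, and the median log2 difference was -0.042. On rescaled values 35 were higher and 5 lower, against 58.7% and 12.3% of all tested genes. Among 15 further J proteins 13 were tested, with 4 higher (30.8%) and 2 lower (15.4%), against 29.9% and 25.4% of all tested genes. Dnajc14, a J protein of the endoplasmic reticulum membrane, rose by 1.89 ± 0.19 (SE, limma adjusted p = 0.000134), from 4.59 ± 0.523 to 19.7 ± 1.68 RPKM (SD, n = 3 each). Among 11 tested HSP90 co-chaperones 2 were higher (18.2%) and 3 lower (27.3%), against the same shares of all tested genes. Fkbp5, a glucocorticoid-induced immunophilin, was higher by 1.11 ± 0.27 (SE, adjusted p = 0.00673), a call that was lost after the length and GC correction (0.33, adjusted p = 0.247). Ppid, the cyclophilin of the HSP90 complex, was lower with a difference of -1.17 ± 0.23 (SE, adjusted p = 0.00232), a call that was lost on rescaled values (-0.28, adjusted p = 0.353).

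The chaperones of the endoplasmic reticulum, taken for comparison, had other counts. Of 18 tested, 11 were called higher in the stem-labelled clones and 1 lower, with 29.9% and 25.4% of all tested genes called in these directions. Among the 35 cytosolic and mitochondrial genes 4 were higher and 10 lower. The median log2 differences were 0.68 and -0.14. Hspa5 (BiP), the HSP70 of that compartment, rose from 110.7 ± 23.3 to 266 ± 27.1 RPKM (SD, n = 3 each; log2 difference 1.27 ± 0.26, SE, limma adjusted p = 0.00285). The difference between the lists was not tested. After the length and GC correction 9 of the 18 were higher and 0 lower, against 5 and 9 of the 35, and 25.8% and 22.0% of all tested genes. On rescaled values 17 of the 18 were higher and 1 lower, against 20 and 2 of the 35, and 58.7% and 12.3% of all tested genes. The medians were then 1.51 and 0.77.

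The calls were also set beside the promoter letters. The element with 2 units was present for 3 of the 4 genes called higher, for 2 of 6 called lower that had a window, for 9 of 18 not called and for 2 of 3 not tested. Genes with an element lay in both directions, with Hspa1b and Bag3 higher and Hspe1 and Stub1 lower. The 4 genes with the element of 3 units had log2 differences of 0.53 (Dnajb6), 0.36 (Hsph1), -0.61 (Hspd1) and -1.06 (Hspe1).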

How the data were processed

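The 6 libraries were grouped by the tissue label and numbered by their titles. The authors deposited RPKM values, 1 file per library. The submitters' processing notes name Bowtie2 2.0.6, TopHat2 2.0.9 and mm9 without their roles. The counting program, its strand and its handling of reads that match several genes are not given in the sources used here. Gene coordinates in the files were those of GRCm38 (80.6% of genes with the same start and end as in GENCODE M21), and are given on that build. RPKM times length gave whole reads for 100% of values (tolerance 0.01).

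Genes that reached 1 RPKM in 3 or more libraries (10097 kept, 9082 removed) were compared on the log2(RPKM + 1) scale with limma 3.58.1 (R 4.3.3), with a variance trend and no further scaling. A pseudocount of 1 understates changes of low genes. Tests were two-sided, with Benjamini-Hochberg adjustment over all tested genes. The 38 genes, the other lists and the comparison were chosen with earlier results of these data known. The within-library ratios were chosen after seeing gene values. Members were named by role. The alternatives were a replicate block, each library left out, upper-quartile scaling, division by summed reads, no filter, mean RPKM of at least 5, a pseudocount of 0.1, limma without trend or robust, a correction for length and GC content (natural splines with 5 degrees of freedom), that correction with the block, and limma-voom on recovered reads. Deviations of same-numbered libraries from their group means had correlations of -0.12, 0.026 and -0.085 over 10097 genes, so numbers were not taken as pairs. Protein sequences were not analysed here.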

Additional observations from a re-analysis of the deposited data

How the results depend on the processing

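Of 594 results of a chaperone under an alternative, 460 kept direction and side of the threshold, 50 lost the call, 35 gained one and 49 changed sign. No chaperone was called in opposite directions under 2 settings, and 13 kept their sign under all 17 alternatives. Leaving out 1 library gave 3 to 5 called higher, 5 to 8 called lower and medians of -0.19 to -0.037. With the replicate block, 3 were higher and 8 lower, and the median stayed at -0.14. The block ended the calls of Dnajb6 (adjusted p = 0.0835), Cct4 (adjusted p = 0.0880) and Hspe1 (0.0606) and changed no other. Upper-quartile scaling gave 9 higher, 6 lower and a median of 0.094. Division by summed reads gave 20 higher, 2 lower and a median of 0.77. The median was -0.32 after the length and GC correction, with and without the block, and -0.29 with limma-voom. Relative to Hspa8, Hspa1b moved from 1.45 to 2.35 on the log2 scale after the correction, with and without the block.

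The following differences changed sign, and the cause was not tested. Over the libraries left out, the ranges were -0.37 to 0.029 for Dnaja1, -0.049 to 0.17 for Dnajb1, -0.23 to 0.051 for Tcp1, -0.10 to 0.25 for Hspa9 and -0.86 to 0.048 for Hspe1 relative to Hspd1. The sign changes were Dnaja1 at 0.029 (stem-labelled replicate 1), Dnajb1 at -0.049 (stem-labelled replicate 2), -0.026 (other replicate 1) and -0.0011 (other replicate 2), Hspa9 at -0.027 (stem-labelled replicate 3) and -0.10 (other replicate 3), Tcp1 at 0.051 and Cct5 at 0.032 (other replicate 2), and Hspe1 relative to Hspd1 at 0.048 (other replicate 3). Under upper-quartile scaling they were Stip1 0.094, Dnaja1 0.094, Dnaja2 0.091, Tcp1 0.13, Cct2 0.16, Cct5 0.13 and Trap1 0.0092. Under division by summed reads they were Hsf1 0.23, Stip1 0.77, Cdc37 0.43, Ptges3 0.13, Dnaja1 0.70, Dnaja2 0.76, Dnajb4 0.21, Tcp1 0.80, Cct2 0.84, Cct4 0.35, Cct5 0.80, Cct7 0.29, Hspd1 0.33 and Trap1 0.67. Under the length and GC correction, with and without the block, they were Hsp90ab1 -0.034, Hspa4 -0.38, Hsph1 -0.43, Dnaja2 0.12, Dnajb6 -0.24, Cct2 0.16, Cct3 -0.26, Cct6a -0.17, Hspa9 -0.21 and Hspe1 relative to Hspd1 0.26. With limma-voom they were Dnajb1 -0.089 and Hspa9 -0.042. Depth limits Hspa1a and Hspb1, with at most 2 and 29 reads in a library.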
